A study of Mus musculus with 14 samples.

Results

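Mrc1, Mgl2 and Clec10a encode the mannose receptor and both mouse galactose-type lectins of macrophages, and they are 3 of the 9474 genes measured in 14 RNA libraries from mouse macrophages. They were taken by gene symbol, and whole read numbers could be recovered for all 3 in every library. In the culture experiment, C57BL/6J bone marrow monocytes spent 7 days in medium with CSF1, which drives macrophage growth, plus 20 ng/mL IL4 (4 libraries) or with CSF1 and no IL4 (4 libraries). The CSF1 dose is stated as 25 ng/mL in the protocol but as 20 ng/mL in the study design. In the marrow experiment, C57BL/6J mice received acute myeloid leukemia (AML) cells carrying an IL4 cDNA (3 libraries) or an empty vector (3 libraries), and F4/80+ cells were sorted from the marrow after 12 days. Every marrow library is therefore from a leukemic animal, and the source of the added IL4 is the leukemia itself. The series concerned IL4, CD47 and the uptake of leukemia cells by macrophages. The age and sex of the mice and any pooling of animals are unstated.

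The mannose receptor, CD206, is an endocytic receptor whose C-type lectin domains bind mannose, fucose and N-acetylglucosamine on microbes and on the body's own glycoproteins, which it carries to lysosomes. MGL2 (CD301b, from Mgl2) and MGL1 (CD301a, from Clec10a) are shorter type II membrane proteins that bind terminal galactose and N-acetylgalactosamine. IL4 acts through its receptor and the transcription factor STAT6, and all 3 lectins are used in mouse studies as markers of IL4-exposed, alternatively activated macrophages.

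In mm10 (GRCm38, GENCODE M21), Mrc1 spans chr2:14229392-14332057 on the plus strand, with 30 exons in a principal transcript of 5374 bases. Mgl2 lies at chr11:70130329-70137550 and Clec10a at chr11:70156197-70170834, both on the plus strand and both with 10 exons in their principal transcripts, of 1586 and 1496 bases. These neighbours are 18646 bases apart, with 0 annotated genes between them. Their transcripts were the same at 79.6% of 1414 aligned positions and shared 6 stretches of at least 50 identical bases, 536 bases in all, all of them coding. The longest stretch, of 183 bases, runs over exons 7 to 9. It is shown here within 300 coding bases because reads from it cannot be assigned to either gene by sequence. The first window is chr11:70136277-70136756 and the second chr11:70169762-70170246, introns left out. Capitals mark the 10 bases that differ, and the other 290 are the same.
Mgl2: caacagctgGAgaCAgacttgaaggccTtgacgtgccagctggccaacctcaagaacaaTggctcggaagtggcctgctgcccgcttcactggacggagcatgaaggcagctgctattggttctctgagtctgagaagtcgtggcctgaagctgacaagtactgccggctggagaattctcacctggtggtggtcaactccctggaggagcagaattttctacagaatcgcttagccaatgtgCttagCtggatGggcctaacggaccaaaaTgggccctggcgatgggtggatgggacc
Clec10a: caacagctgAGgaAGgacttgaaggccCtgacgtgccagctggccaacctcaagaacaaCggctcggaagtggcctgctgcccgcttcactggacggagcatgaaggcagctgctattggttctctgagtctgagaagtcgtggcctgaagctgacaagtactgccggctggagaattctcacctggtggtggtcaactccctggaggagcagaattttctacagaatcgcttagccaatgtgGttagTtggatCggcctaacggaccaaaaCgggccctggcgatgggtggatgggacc

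**Figure D1:**
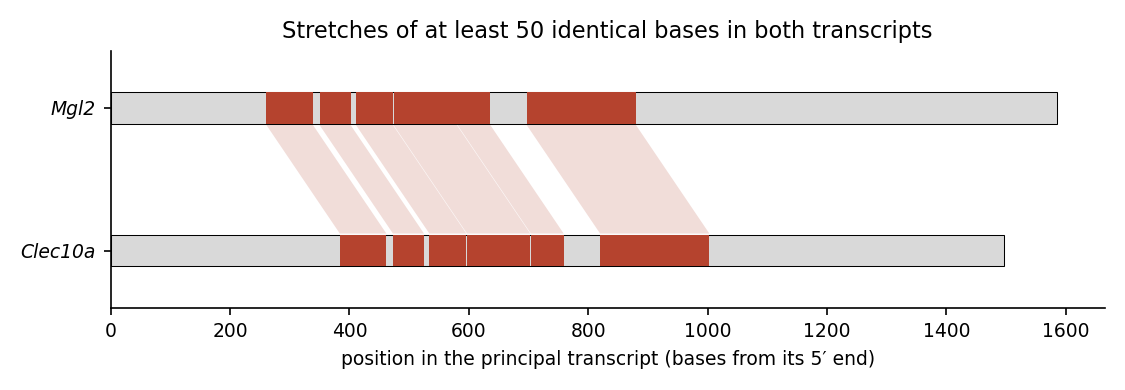
Principal transcripts of Mgl2 (top) and Clec10a (bottom), drawn to scale in bases from their 5′ ends; red blocks are the 6 stretches of at least 50 bases that are identical in both, joined by shading. The stretches lie in the same order, and the longest, of 183 bases, is the one nearest the 3′ end.

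Of windows of 50 bases in the Mgl2 transcript, 15.7% occur unchanged in the Clec10a transcript, and of windows of 100 bases, 6.12%. From the side of Clec10a the shares were 16.7% and 6.51%. Mrc1 shares 0 such windows with either gene. How the deposited values treat a read that fits both genes is unstated, so the split of reads between Mgl2 and Clec10a is uncertain where they share bases, and the part of such reads in the results was not tested.

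The promoters of Mrc1 and Mgl2 are shown as the 250 bases before the RefSeq start (GRCm38.p6, plus strand), chr2:14229164-14229413 and chr11:70130107-70130356. Clec10a had 0 windows in the promoter set used, so its promoter is not shown and was not searched. Capitals mark GAGGAA, a core letter string bound by the macrophage factor PU.1, on either strand.
Mrc1: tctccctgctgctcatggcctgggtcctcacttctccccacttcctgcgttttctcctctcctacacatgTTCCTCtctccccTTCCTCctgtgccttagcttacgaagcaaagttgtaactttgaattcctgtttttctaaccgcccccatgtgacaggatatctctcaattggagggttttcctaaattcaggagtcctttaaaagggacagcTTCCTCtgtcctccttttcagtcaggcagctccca
Mgl2: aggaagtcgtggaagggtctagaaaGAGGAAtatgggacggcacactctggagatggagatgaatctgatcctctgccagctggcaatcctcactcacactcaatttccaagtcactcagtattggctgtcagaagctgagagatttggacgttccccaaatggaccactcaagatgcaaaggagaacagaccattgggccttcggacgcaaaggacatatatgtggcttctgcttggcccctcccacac
The string occurs 3 times before Mrc1 and 1 time before Mgl2, and 23.3% of 32851 mouse promoter windows of the same length hold it. The STAT-type strings TTCNNNNGAA and TTCNNNGAA, searched on both strands, had 0 matches in both windows, against 5.85% and 7.02% of all windows, which says only that these letters are not in these 250 bases.

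The deposited values are log2 values shifted by a constant per gene and per library, and whole reads were recovered from them for 99.7% of genes. Recovered reads totalled 527327 to 827319 per library, so a gene with 0 reads in a library is limited to at most 3.63 to 5.69 RPM. Levels are in RPM, reads scaled to 1000000 recovered reads of a library, log2 fold changes are IL4 over control with their standard errors, and adjusted p-values come from limma with Benjamini-Hochberg adjustment over all 9474 genes (threshold 0.05). In culture 754 genes were higher and 3084 lower with IL4, against 1365 and 1205 once each library was centred on its median gene. In marrow 635 genes were higher and 1086 lower, against 895 and 845 after centring. In culture the median gene had a log2 fold change of -0.36, in marrow of -0.06. The libraries of replicate 4 stood apart from the others of their culture groups (chi-square per degree of freedom 4.15 to 5.90, against 1.37 to 2.15 among the others), so culture results are also given without both.

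Mgl2 rose in both experiments. In culture it had 511, 592, 465 and 344 reads with IL4, against 0, 0, 0 and 0 reads in controls. Every IL4 library held at least 344 reads and no control library a single read, so the groups do not overlap. That is 679 ± 91.1 RPM with IL4 (SD, n = 4), against a limit of 3.63 to 5.23 RPM in the 4 control libraries. With 3 reads over the control group as the floor, Mgl2 was at least 602-fold higher with IL4. Its fitted log2 fold change of 9.79 ± 0.21 had the smallest p of all genes in that comparison (limma adjusted p = 1.36e-09). The size depends on the offset added to 0 reads and was 7.80 with an offset of 2 reads. At 0 reads in every control, the control values differ only by library scaling. The standard error and the rank therefore do not measure a spread of Mgl2 between controls. With voom weights on the reads the log2 fold change was 9.79 ± 0.78 (limma adjusted p = 3.43e-07).

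In marrow Mgl2 had 131, 214 and 274 reads with IL4-secreting leukemia, against 6, 1 and 4 reads with control leukemia. The lowest IL4 library stood far above the highest control library. The levels were 329 ± 84.9 and 5.74 ± 4.01 RPM (SD, n = 3 each), a log2 fold change of 5.87 ± 0.48 (adjusted p = 0.000122). The ratio of pooled reads was 57.5, with a counting interval of 31.9 to 116, since the control side rests on 11 reads in all.

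Clec10a, the neighbour and close relative of Mgl2, rose in culture. It had 31, 32, 34 and 28 reads with IL4, against 6, 4, 5 and 2 reads in controls. The IL4 libraries were close to each other and all above the controls. The levels were 45.0 ± 5.24 and 6.45 ± 2.35 RPM (SD, n = 4 each), with a log2 fold change of 2.74 ± 0.26 (adjusted p = 4.23e-05) and a ratio of pooled reads of 6.95 (counting interval 4.17 to 12.3).

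In marrow Clec10a had 11, 22 and 65 reads with IL4-secreting leukemia, against 10, 15 and 4 reads with control leukemia. The groups overlap, since the second control library was above the first IL4 library in RPM. The levels were 47.7 ± 31.2 and 15.3 ± 9.03 RPM (SD, n = 3 each), and the log2 fold change of 1.57 ± 0.54 did not pass the test (adjusted p = 0.0764, unadjusted 95% interval 0.34 to 2.79). The call depends on the setting: the adjusted p was 0.049 among genes with a mean of at least 10 reads, 0.00715 with an offset of 2 reads, 0.0139 without the constant per gene, 0.00774 with voom weights on the reads, and 0.0313 (log2 fold change 2.07) without the first IL4 library. Over all alternatives it lay between 0.00715 and 0.232.

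Mrc1 showed the other pattern, high in culture whether or not IL4 was added. It had 1051, 1016, 747 and 699 reads with IL4, against 1024, 875, 766 and 439 reads in controls. The groups overlap over most of their range, and the fourth control library was the lowest of the 8. The levels were 1247 ± 124 and 1185 ± 361 RPM (SD, n = 4 each), and the log2 fold change of 0.14 ± 0.23 did not pass the test (adjusted p = 0.648, 95% interval -0.36 to 0.64). Relative to the median gene, which was lower with IL4, it was 0.50 (adjusted p = 0.0945). Its sign turned without control replicate 4 (-0.11) and without both replicate 4 libraries (-0.07), neither past the threshold.

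In marrow Mrc1 rose. It had 53, 101 and 255 reads with IL4-secreting leukemia, against 12, 10 and 9 reads with control leukemia. The control libraries were close together, and the IL4 libraries were all higher but spread over several fold. The levels were 202 ± 112 and 16.2 ± 2.89 RPM (SD, n = 3 each), with a log2 fold change of 3.43 ± 0.38 (adjusted p = 0.000488) and a ratio of pooled reads of 13.5 (counting interval 9.35 to 20.1).

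**Figure D2:**
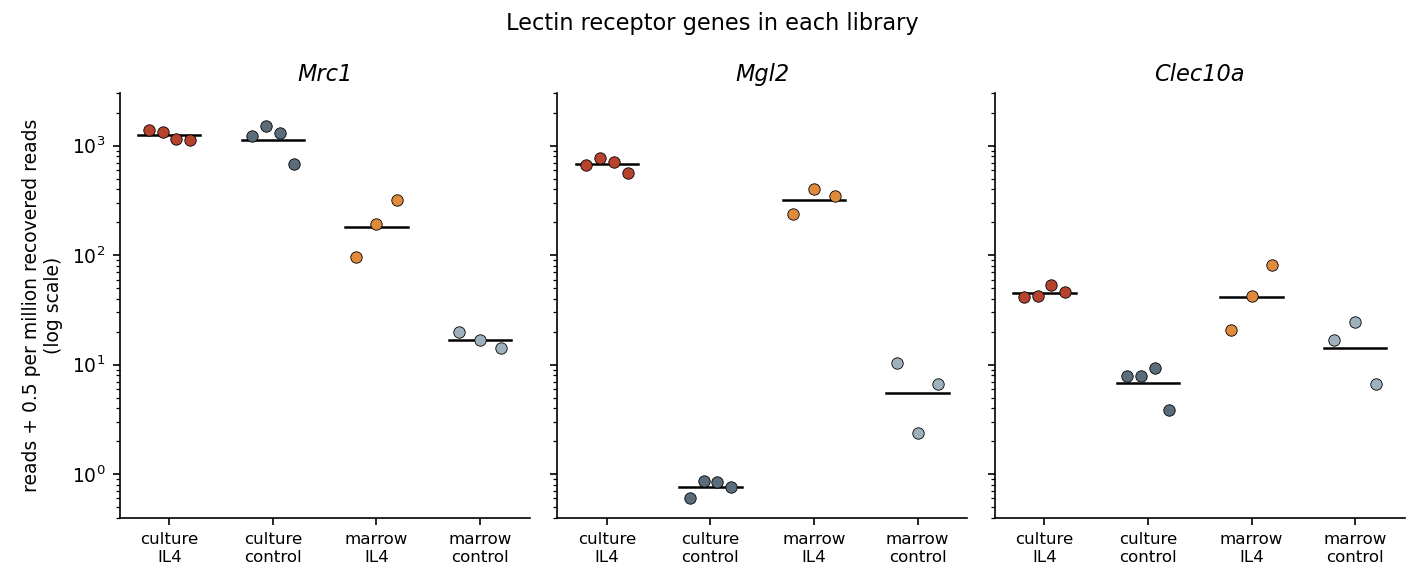
RPM after adding 0.5 reads (log scale) of Mrc1, Mgl2 and Clec10a; each point is a library, and bars are geometric means of 4 (culture) or 3 (marrow) libraries. Mgl2 points at the bottom are the 4 culture controls with 0 reads, Mrc1 overlaps between the culture groups, and Clec10a overlaps between the marrow groups.

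Thus 2 of the 3 genes were called in culture, Mgl2 and Clec10a, both higher, where 40.5% of all genes were called, 7.96% higher and 32.6% lower. In marrow 2 of the 3 were called, Mrc1 and Mgl2, both higher, where 18.2% of all genes were called, 6.7% higher and 11.5% lower. The same pairs had groups that do not overlap, as did 37.7% of all genes in culture (7.49% with all IL4 libraries higher, 30.2% with all lower) and 37.6% in marrow (15.5% and 22.1%). Mgl2 was the member called in both experiments. Without both replicate 4 libraries of culture, the log2 fold change was 9.88 for Mgl2 and 2.45 for Clec10a, both still called.

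The response itself was tested for a difference between the experiments, marrow minus culture, over all 14 libraries. The difference was 3.29 ± 0.47 for Mrc1 (adjusted p = 0.000218), so its response was larger in marrow. It was -3.93 ± 0.54 for Mgl2 (adjusted p = 0.000161), so its response was smaller in marrow; the size again depends on the offset, with -2.49 at an offset of 2 reads, while the pooled ratios were 57.5 in marrow and at least 602 in culture. For Clec10a the difference of -1.17 ± 0.65 did not pass the test (adjusted p = 0.207), and its 95% interval of -2.56 to 0.21 includes 0. In this test 23.1% of all genes were called, 16.6% with a higher and 6.45% with a lower response in marrow. The split was 1575 higher and 611 lower as deposited, against 900 and 889 after centring. The experiments differ in IL4 source, exposure and surroundings at once and may differ in cell purity, and these cannot be told apart.

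**Figure D3:**
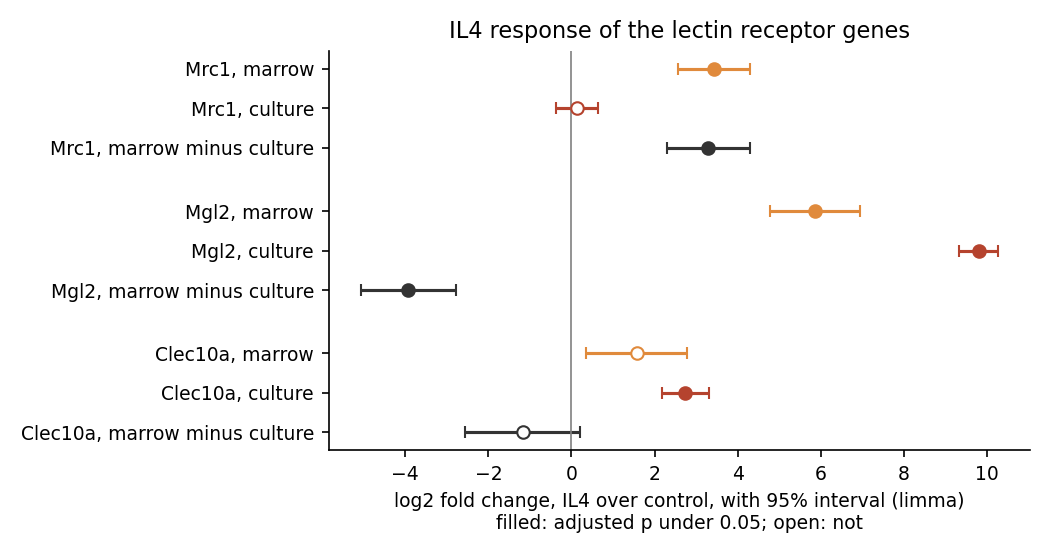
Log2 fold changes of IL4 over control in marrow and culture and their difference, for each gene; points are limma estimates, lines 95% intervals, filled points have an adjusted p under 0.05. Mrc1 is at 3.43 in marrow and 0.14 in culture, Mgl2 at 5.87 and 9.79, and Clec10a at 1.57 and 2.74.

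The 3 genes were also compared inside a library, where scaling cancels, with 0.5 reads added to each gene. In culture the log2 ratio of Mgl2 to Clec10a reads was 3.60 to 4.19 with IL4, against -3.70 to -2.32 in controls. The log2 ratio of Mrc1 to Clec10a was 4.44 to 5.06 with IL4, against 7.12 to 7.60 in controls. Mrc1 to Mgl2 was 0.68 to 1.04 with IL4, against 9.78 to 11.00 in controls. None of these 3 pairs of ranges overlap, and each had an exact two-sided permutation p of 0.0286, the smallest that 4 against 4 libraries allow, which became 0.0571 after adjustment over 6 tests. With Mgl2 at 0 reads in every culture control, the control ratios that hold it depend on the added 0.5 reads.

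In marrow the log2 ratio of Mgl2 to Clec10a was 2.07 to 3.52 with IL4, against -3.37 to 0 in controls. Mrc1 to Clec10a was 1.96 to 2.22 with IL4, against -0.56 to 1.08 in controls, and Mrc1 to Mgl2 was -1.30 to -0.10, against 0.94 to 2.81. The ranges again do not overlap, but 3 against 3 libraries cannot give an exact p below 0.1. The ratio of Mrc1 to Clec10a was thus lower with IL4 in culture (IL4 minus control -2.60 on the log2 scale) and higher with IL4 in marrow (1.86).

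Per kilobase of transcript, the order of the levels of the 3 genes differed among the groups. In IL4 culture Mgl2 was first with 428 ± 57.5 RPM per kilobase, then Mrc1 with 232 ± 23.2 and Clec10a with 30.1 ± 3.50 (SD, n = 4). In control culture Mrc1 stood at 220 ± 67.3, Clec10a at 4.31 ± 1.57 and Mgl2 at 0. In marrow with IL4-secreting leukemia Mgl2 led with 207 ± 53.5, while Mrc1 with 37.7 ± 20.9 and Clec10a with 31.9 ± 20.9 lay within their spread between libraries (SD, n = 3), though Mrc1 was the higher of this pair in each of the 3 libraries. In control marrow Clec10a was at 10.3 ± 6.04, Mgl2 at 3.62 ± 2.53 and Mrc1 at 3.02 ± 0.538 (SD, n = 3). The range of Mgl2 over the libraries (1.009 to 6.065) overlapped that of Clec10a (4.002 to 16.05) and held that of Mrc1 (2.507 to 3.58).

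Between the groups the levels are a description, since the tables were normalized separately. Mrc1 was highest in both culture groups, which did not differ beyond their spread, then in IL4 marrow, then in control marrow. Mgl2 was highest in IL4 culture (558 to 773 RPM), then in IL4 marrow (238 to 406), then in control marrow (1.60 to 9.62), and had 0 reads in control culture. Clec10a was highest in IL4 marrow (20.0 to 81.5 RPM) and IL4 culture (40.7 to 52.3), whose ranges overlap, followed by control marrow (5.99 to 24.0) and control culture (3.07 to 8.50), whose ranges also overlap. Of the reads of Mgl2 and Clec10a together, Mgl2 took 92.5% to 94.9% in IL4 culture, 0% in control culture, 80.8% to 92.3% in IL4 marrow and 6.25% to 50% in control marrow.

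The F4/80 gene (Emr1 in the tables), whose protein was the gate of the marrow sort, was low in marrow. It had 37, 74 and 126 reads with IL4-secreting leukemia, against 28, 65 and 39 reads with control leukemia. These groups overlap, and its log2 fold change of 0.81 ± 0.36 did not pass the test (adjusted p = 0.153). In culture Emr1 fell, with 1164 ± 96.3 RPM with IL4 and 2634 ± 230 in controls (SD, n = 4 each; log2 fold change -1.17 ± 0.14, adjusted p = 0.000218).

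Set against Emr1 in the same library, Mrc1 in marrow had a log2 read ratio of 0.45 to 1.01 with IL4, against -2.64 to -1.19 in controls. For Mgl2 that ratio was 1.12 to 1.81 with IL4, against -5.45 to -2.13 in controls. Both still stood apart, with an exact permutation p of 0.1, the smallest possible. For Clec10a it was -1.73 to -0.95, against -3.13 to -1.44, which overlap (exact permutation p = 0.3). In culture, where Emr1 fell with IL4, the Mrc1 ratio was -0.17 to 0.35 with IL4, against -1.81 to -0.82 in controls. For Mgl2 it was -1.19 to -0.43, against -12.24 to -11.56, which rests on the added 0.5 reads. For Clec10a it was -4.86 to -4.43, against -9.27 to -8.10. None of these culture ranges overlap (exact permutation p = 0.0286 each, 0.0571 after adjustment). Mrc1 itself did not pass the test in culture, while Emr1 did. In the IL4 marrow libraries Mrc1, Clec10a and Emr1 were all lowest in the first and highest in the third.

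The marrow libraries also held many reads of genes listed as markers of other cell types, and which cells made them was not tested. The 6 measured of 14 neutrophil markers summed to 46017 to 57332.5 RPM with IL4-secreting leukemia, against 61311 to 71188 with control leukemia. Of 21 macrophage genes 19 were measured, and the 18 with recovered reads summed to 2949 to 3447, against 3098 to 3426. Lyz2, measured without recovered reads, is not in the macrophage sums, and it fell in both experiments (log2 fold change -2.28 in marrow and -2.25 in culture). In IL4 culture the same neutrophil markers summed to 222 to 520 RPM, against 253 to 375 in control culture. The other marker sums separated the culture groups, in which Mgl2 and Clec10a rose. Dendritic cell markers summed to 3069 to 3649 RPM with IL4, against 341 to 999 in controls, and monocyte markers to 3980 to 5072, against 1136 to 2101. Eosinophil and mast cell markers summed to 621 to 2174, against 14.5 to 38.4, with 1 of the 4 genes at 0 in every IL4 library, and erythroid markers to 452 to 1260, against 64.6 to 172. B cell markers summed to 244 to 309, against 162 to 221, and Il7r, the T and NK cell marker measured, was at 592 to 825, against 99.3 to 441. The 18 macrophage genes summed to 33059 to 36862 with IL4, against 22821 to 32490. Endothelial and stromal markers were lower, at 353 to 500, against 765 to 1836, as were progenitor and blast markers, at 20.0 to 30.02, against 83.3 to 108. Single genes of these lists passed the test in culture, and not all followed the sum of their list. Of 3 measured dendritic cell genes, 1 rose, Itgax (log2 fold change 5.03 ± 0.76, adjusted p = 0.000779), and 2 fell (1 after centring). Of 6 measured monocyte genes, 1 rose, Fn1, 3 fell and 2 did not pass. Of 4 measured eosinophil and mast cell genes, 1 rose, Ear2 (9.74 ± 0.60, adjusted p = 3.49e-06), and 3 did not pass. Ear2 is also on the list of alternative activation genes. Of 5 measured endothelial and stromal genes, 2 rose and 3 fell, and of 3 measured B cell genes, 2 rose and 1 fell. Most macrophage genes went against their higher sum: of 19 measured, 4 rose, 11 fell and 4 did not pass (6 rose and 11 fell after centring). Their median log2 fold change was -1.17, against -0.36 over all genes. The part of other cell types in the culture values of Mgl2 and Clec10a was not tested. In bulk libraries such as these, fewer cells of a type and less RNA per cell cannot be told apart.

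In marrow, where Mrc1 and Mgl2 rose, most other marker sums separated the groups. The 6 measured of 12 monocyte markers summed to 334 to 628 RPM with IL4-secreting leukemia, against 4638 to 6265 with control leukemia. The 5 measured of 15 endothelial and stromal markers (Pecam1, Vwf, Col1a1, Col1a2 and Sparc) summed to 143 to 236, against 38.4 to 59.9. The mannose receptor is also made by sinusoidal endothelium, as background. The 4 measured of 11 eosinophil and mast cell markers summed to 385 to 517, against 136 to 182. The 2 measured of 11 erythroid markers (Car2 and Tfrc) summed to 191 to 266, against 1460 to 1525, and the 3 measured of 10 B cell markers to 45.4 to 81.5, against 158 to 178. The 3 measured of 14 dendritic cell markers (Itgax, Irf8 and Bst2) summed to 105 to 173, against 286 to 411, and Il7r, the 1 measured of 12 T and NK cell markers, was at 3.63 to 5.69, against 36.8 to 53.9. The 4 measured of 10 progenitor and blast markers summed to 415 to 753, against 301 to 446, which overlap. In marrow none of these measured markers was at 0 in every library. Macrophage genes split: the complement genes C1qb (log2 fold change 3.44 ± 0.33, adjusted p = 0.000255) and C1qc (3.49 ± 0.48, adjusted p = 0.00151) rose, while Lyz2, lysozyme, fell (-2.28 ± 0.15, adjusted p = 4.59e-05), as did the Fc receptor gene Fcgr1 (-2.70 ± 0.33, adjusted p = 0.000814). The part of any mixture of cell types in the marrow values of Mrc1, Mgl2 and Clec10a was not tested.

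**Figure D4:**
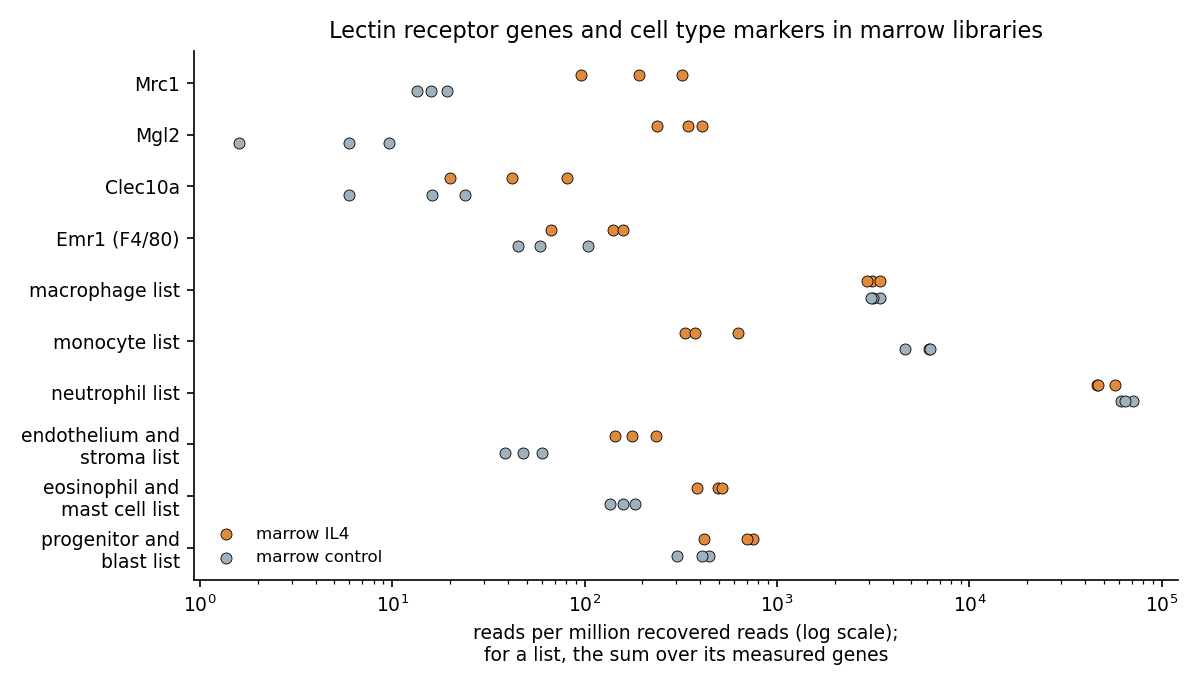
RPM (log scale) in the 3 marrow libraries with IL4-secreting leukemia (orange, upper in each row) and the 3 with control leukemia (grey, lower). Rows below Emr1 are sums over the genes of a marker list with recovered reads, so the macrophage sum leaves out Lyz2. Mrc1 and Mgl2 separate the groups, Clec10a and Emr1 overlap, and the neutrophil sum is the highest of all rows in every library.

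Other genes listed as C-type lectin receptors moved in both directions. Of 48 genes listed, 22 were measured, Mrc1, Mgl2 and Clec10a among them. The list also holds Clec16a and Selplg, which are not lectin receptors themselves and did not pass in either experiment. In culture 7 rose, 7 fell and 8 did not pass the test (11 rose and 7 fell after centring), with a median log2 fold change of 0.12, against -0.36 over all genes; the median was also 0.12 with Mgl2 and Olr1, at 0 reads in controls, set at their bounds. In marrow 3 rose, 7 fell and 12 did not pass, with a median of -0.49, against -0.06 over all genes.

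Besides Mgl2 and Clec10a, the culture risers were Clec7a, which encodes the beta-glucan receptor dectin-1, Ly75 (DEC-205), Clec4a3, Clec4b1 and Olr1 (LOX-1). Clec7a had 661 to 1013 reads with IL4, against 52 to 641 in controls, and a log2 fold change of 2.25 ± 0.56 (adjusted p = 0.0103). Olr1 had 3 to 16 reads with IL4, against 0 in all controls. The culture fallers were Clec4e (Mincle), Clec4d, Cd93, Clec12a, Clec5a, Cd302 and Thbd. Clec4e, a receptor for mycobacterial glycolipid, had 0 to 2 reads with IL4, against 7 to 28 in controls (log2 fold change -4.04 ± 0.64, adjusted p = 0.000972, but -2.83 with an offset of 2 reads), and Clec4d, its close partner, had 34 to 77 reads, against 325 to 493 (-2.82 ± 0.18, adjusted p = 4.84e-06).

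In marrow the third riser beside Mrc1 and Mgl2 was Clec5a, with 182 to 246 reads with IL4-secreting leukemia, against 120 to 145 with control leukemia (log2 fold change 0.70 ± 0.15, adjusted p = 0.013). It had fallen in culture (-1.44 ± 0.30, adjusted p = 0.00399). The marrow fallers were Ly75, Clec12a, Clec4a1, Clec4a3, Cd302, Cd93 and Thbd. Ly75 and Clec4a3 had risen in culture, and their differences of response, marrow minus culture, were -3.08 ± 0.45 (adjusted p = 0.000272) and -1.82 ± 0.29 (adjusted p = 0.000494). Clec4a3 lost its marrow call without control replicate 1 (adjusted p = 0.0629) or control replicate 2 (adjusted p = 0.0765).

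**Figure D5:**
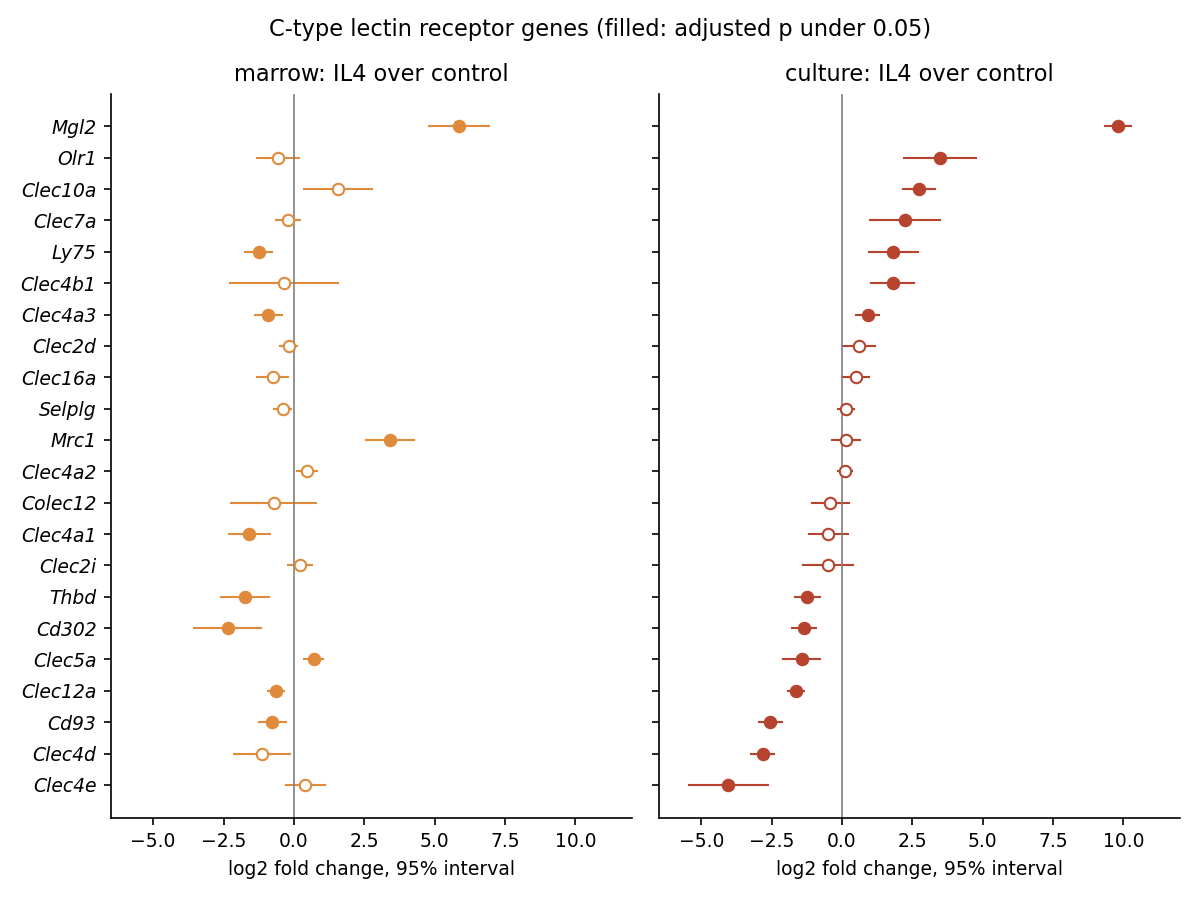
Log2 fold changes of IL4 over control for the 22 measured genes of the C-type lectin receptor list in marrow (left) and culture (right), ordered by the culture value. Lines are 95% intervals and filled points have an adjusted p under 0.05. Mgl2 is the highest in both panels, and Mrc1, near 0 in culture at 0.14, is second in marrow at 3.43.

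Mrc1 is also an endocytic scavenger receptor, and 12 of 18 listed genes of that class were measured. In culture 1 of them rose and 7 fell (2 and 5 after centring), and in marrow 2 rose and 5 fell (2 and 4). The riser beside Mrc1 in marrow was Cd163, the haemoglobin scavenger (log2 fold change 2.33 ± 0.27, adjusted p = 0.0006), which like Mrc1 did not pass in culture (-1.48 ± 0.73, adjusted p = 0.126). Lrp1 (-2.83 ± 0.27, adjusted p = 0.000255) and Msr1 (-2.0 ± 0.31, adjusted p = 0.00238) fell in marrow, and Stab1 fell in culture (-6.45 ± 0.22, adjusted p = 3.09e-08). The culture riser was Cd36 (1.70 ± 0.30, adjusted p = 0.00176).

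The listed genes of alternative activation, 25 measured of 31, include all 3 lectins. In culture 23 rose and 0 fell, and the 2 that did not pass were Mrc1 and Cd163. In marrow 17 rose and 3 fell. Retnla, a secreted product of alternative activation, had 895 to 3037 reads in IL4 marrow, against 0 in all control marrow libraries, and was at least 1701-fold higher by pooled reads. Chil3 rose in marrow (2.95 ± 0.14, adjusted p = 7.09e-06), and Fn1, fibronectin, fell there (-4.20 ± 0.34, adjusted p = 0.000122) but rose in culture (3.09 ± 0.28, adjusted p = 3.81e-05). Of the IL4 receptor and STAT6 pathway, 12 measured of 13, 3 genes rose and 1 fell in marrow (3 and 0 after centring), and 2 rose and 4 fell in culture (2 and 2 after centring). The feedback gene Cish rose in marrow (3.64 ± 0.24, adjusted p = 4.59e-05) and in culture (5.26 ± 0.47, adjusted p = 3.5e-05). Il4ra rose in marrow (1.07 ± 0.18, adjusted p = 0.00344) and fell in culture (-1.13 ± 0.14, adjusted p = 0.000211), and Stat6 did not pass in either (0.24 ± 0.15 in marrow, adjusted p = 0.306; -0.16 ± 0.10 in culture, adjusted p = 0.238).

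Genes that bind or trim sugars elsewhere were also listed. Of 5 measured genes on the list of galectins, which bind galactosides outside the cell, 1 rose and 3 fell in culture and 0 rose and 1 fell in marrow. That list also holds the gene of a galectin-binding protein that is not a galectin, among the culture fallers. Lgals3 rose in culture (1.44 ± 0.23, adjusted p = 0.000961), and Lgals9 fell in marrow (-0.60 ± 0.16, adjusted p = 0.0345, but 0.0713 after centring) and in culture (-1.89 ± 0.22, adjusted p = 0.000157). Of 5 measured siglecs, which bind sialic acid, 1 rose and 1 fell in marrow, and 1 rose and 3 fell in culture. Siglec1 rose in marrow (2.09 ± 0.47, adjusted p = 0.0146) and fell in culture (-1.85 ± 0.32, adjusted p = 0.00161), and Cd22, also a B cell gene, did the reverse. Of 16 measured lectins of the secretory pathway and mannose 6-phosphate sorting, 1 rose and 1 fell in marrow and 1 rose and 4 fell in culture (2 and 0 after centring). Igf2r, a mannose 6-phosphate receptor, fell in marrow (-0.76 ± 0.15, adjusted p = 0.00732) and rose in culture (0.64 ± 0.12, adjusted p = 0.00209). Of 20 measured genes on the list of lysosomal glycosidases 4 rose and 2 fell in marrow, and 3 rose and 3 fell in culture (6 and 1 after centring). That list also holds a sulfatase gene, among the marrow fallers.

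Over the 14 libraries, each gene centred on its mean within its table, the genes whose pattern was most like that of each lectin were found among genes with a mean of at least 10 reads. For Mrc1 they included Slc38a6 (Pearson r = 0.947), P4hb (0.937), Lars (0.931) and Xpot (0.929). Slc38a6 had 13 to 46 reads in IL4 marrow, against 4 to 5 in control marrow, and 21 to 26 in IL4 culture, against 24 to 39 in control culture. Its groups overlap in culture and not in marrow. For Mgl2 they were Rnase2a (0.987), Anxa2 (0.984), Arg1 (0.983), Itgb3 (0.980) and Retnla (0.979). Rnase2a had 434 to 676 reads in IL4 culture and 27 to 163 in IL4 marrow, against 0 in every control library of either experiment.

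For Clec10a they were Pgap2 (0.932), Nfil3 (0.926), Atf1 (0.926), Ccl9 (0.922) and Cdh1 (0.918). The lectins were not among each other's closest 5: r was 0.879 between Mgl2 and Clec10a, 0.533 between Mrc1 and Clec10a and 0.478 between Mrc1 and Mgl2. All these r values come from the same 14 libraries, which fall into IL4 and control groups, and are given as descriptions.

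Within 200 kilobases of the members 11 other genes were measured, and in culture 0 rose while Dvl2 (log2 fold change -1.04 ± 0.21), Slc16a13 (-0.83 ± 0.28) and 0610010K14Rik (-0.68 ± 0.17) fell (limma adjusted p = 0.00344, 0.0355 and 0.0104). In marrow 1 rose, Acadvl (0.82 ± 0.15, adjusted p = 0.0057). Of all genes, 7.96% were called higher and 32.6% lower in culture, and 6.7% higher and 11.5% lower in marrow. These 4 were named after their values were seen.

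The tables also give fold changes for the members. In the authors' deposited table for marrow, Mgl2 had a fold change of 58.3 (q = 0.0327), Mrc1 of 10.8 (q = 0.0447) and Clec10a of 2.96 (q = 0.293), which match the difference of mean log2 values within 1%. In the authors' deposited table for culture, Mgl2 had 788 (q = 3.68e-11), Clec10a 1.77 (q = 0.0077) and Mrc1 1.02 (q = 0.697). The culture values in the authors' deposited table are matched, within 1%, only after a second log2 of the log2 values, with values under 0.01 set to 0.01. The plain difference gives a fold change of 6.68 for Clec10a, against 1.77 in the authors' deposited table and a ratio of pooled reads of 6.95.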

How the data were processed

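Polyadenylated RNA libraries (TruSeq RNA v2, per the labels' protocols) were demultiplexed with bcl2fastq and aligned with TopHat2 2.0.13 to mm10, per the submitters' processing notes; the counting tool, strand setting and normalization are unstated there. The authors deposited, for each experiment, a table of log2 values per library; the values themselves show log2(reads + 0.5) plus a constant per gene and per library. The authors also deposited a fold change (a linear ratio), a p-value and a q-value per gene, made within each table. Solving for the constants over both tables gave whole reads for 9445 of 9474 genes (largest residual 0.000699 log2 below 100 reads); the other 29 keep log2 values only. The recovery and the tests were tried on simulated data. Counting intervals (exact, 95%) and the 3-read floor cover counting error only.

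Groups were compared with limma 3.58.1 (R 4.3.3) with a variance trend on the deposited log2 values, within each table (residual degrees of freedom 6 in culture, 4 in marrow) and, for the difference of responses, over all 14 libraries (10), two-sided, threshold 0.05. Libraries are not stated to come from separate cultures or animals, so p-values measure the spread between these libraries, which may be technical. Where a gene had 0 reads in every library of a group, its spread in that group is that of library scaling only. No pair was close enough to be a duplicate. Same-numbered libraries deviated together little or not at all, with r -0.045 to 0.022 in culture and 0.026 to 0.059 in marrow. Marrow libraries of unlike number had r -0.044 to 0.012. No pairing was used in the main fits, and a replicate block was an alternative. The members, the 18 gene lists and the tests were chosen with earlier results of these data known. Named genes were the members, all listed C-type lectins, the 5 most alike genes per member, at most 2 risers and 2 fallers with the smallest p per list and comparison, and Retnla, Arg1, Il4ra, Stat6 and Emr1. Alternatives were other scalings, filters, offsets and variance models, a replicate block and leaving out libraries. The unused value columns numbered 0. Some named genes are not reported here.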

Additional observations from a re-analysis of the deposited data

Results flagged for a closer look

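The IL4 response differed between marrow and culture for Mrc1 (marrow minus culture 3.29 on the log2 scale, adjusted p = 0.000218, limma) and for Mgl2 (-3.93, adjusted p = 0.000161), each by the test of the difference itself over 14 libraries. The same test, with the same adjustment, passed for the F4/80 gene Emr1 (1.98, adjusted p = 0.00266) and for 11 other genes of the C-type lectin receptor list. The difference was positive for Clec4e (4.44), Clec5a (2.14), Cd93 (1.79), Clec4d (1.68) and Clec12a (0.99), and negative for Olr1 (-4.04), Ly75 (-3.08), Clec7a (-2.47), Clec4a3 (-1.82), Clec16a (-1.24) and Selplg (-0.55). The value of Olr1 rests on 0 reads in all culture controls and depends on the offset. That of Clec4e also does, with 3.23 at an offset of 2 reads. Leaving out 1 library ended the call for Clec7a (highest adjusted p 0.0578, without marrow control replicate 1; also without marrow IL4 replicate 1 or 2 or culture control replicate 3), for Clec16a (0.0521 without marrow IL4 replicate 1 and 0.0515 without marrow control replicate 1) and for Selplg (10 of the 14 libraries when left out singly, highest 0.103, without marrow IL4 replicate 2), which also lost it with a replicate block (0.0576), with no variance trend (0.0692) and without both replicate 4 libraries of culture (0.0561).

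In groups of 4 libraries, 3 C-type lectin genes had a library far from the others, of 44 gene and group combinations examined, where chance gives about 1 in 20. Clec4e had 28, 20, 20 and 7 reads in culture controls 1 to 4, with the fourth apart (gap of 0.956 of the range). Clec12a had 381, 253, 269 and 300 reads in culture controls, with the second apart on the deposited log2 scale (0.907). Thbd had 21, 16, 13 and 13 reads in IL4 culture, with the first apart (0.852). Mrc1, Mgl2 and Clec10a had no such library in the culture groups examined; groups of 3 were not examined.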

How the results depend on the processing

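The calls of Mgl2 in both experiments, of Clec10a in culture and of Mrc1 in marrow, and the differences of Mrc1 and Mgl2, kept their direction and side of the threshold under every alternative run. The response of Mrc1 in culture stayed short of the threshold throughout and ranged from -0.11 (without control replicate 4) to 0.28 (without control replicate 2) on leaving out 1 library; it was -0.067 without both replicate 4 libraries, an alternative chosen after seeing the data. Clec10a in marrow passed with a mean of at least 10 reads (1.57), an offset of 2 reads (1.42), voom weights (1.71) and gene constants removed (1.57), the last 2 also chosen after seeing the data, and ranged from 1.03 to 2.07 on leaving out 1 library. The difference for Clec10a never passed (lowest adjusted p 0.0576, without marrow control replicate 3).

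Median centring and quantile scaling gave 1365 and 1271 genes higher and 1205 and 1324 lower in culture, and 900 and 914 genes with a higher response in marrow. With centring 11 genes of the C-type lectin list rose in culture. In marrow 5 genes of that list rose with an offset of 2 reads, with voom weights and with gene constants removed. On leaving out 1 library, marrow calls ranged from 397 to 534 genes higher and from 678 to 963 lower. Listed C-type lectin genes lower in marrow ranged from 4 to 7, and those with a lower response in marrow from 4 to 8. Of 87 calls of other named genes, 18 lost the threshold under some alternative and 0 changed direction, among them Cd302, Cd93, Clec4a3, Clec5a, Thbd, Lgals9, Siglec1, Cd22 and Stab1 in marrow and the differences of Clec7a, Clec16a and Selplg; the cause was not tested.

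A fit with the replicate number as a block changed no call of the members (Mrc1 in culture 0.14, adjusted p = 0.566; Clec10a in marrow 1.57, adjusted p = 0.0834). The planned count models (a quasi-likelihood and a negative binomial fit) were not run. The deposited unit is log2, and the recovered reads were tested only through the alternatives that use them, such as voom weights. Depth limits Clec10a most, with 2 to 65 reads per library, and Mgl2 in controls, with 0 to 6.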
